A study of Homo sapiens with 3 samples.

Results

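Notch genes of LX-2 cells, a human cell line derived from hepatic stellate cells, were examined with and without recombinant human FGF19 (rhFGF19), the growth factor whose action on these cells the study asked about. The set was defined by gene name and held 10 of the 26108 genes in the table. These were the receptors NOTCH1, NOTCH2 and NOTCH3, the ligands JAG1, JAG2 and DLL1, the targets HES1, HES4 and HEY1, and the DNA-binding factor RBPJ. The 3 poly(A) RNA libraries were 1 of cells given vehicle, 1 of cells given 50 ng/mL rhFGF19 and 1 of cells given 100 ng/mL, all from the same line, so no difference below has a replicate check and no test was possible. Doses follow the sample titles and are called the lower and the higher dose below. The description field of the samples exchanges these doses, so a comparison between the doses depends on which field is right, and it gives 72 h and 73 h of stimulation where the study design gives 24 h. The deposited values are FPKM, that is fragments counted relative to transcript length and library total, and hold no read counts, so the depth is unknown.

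Notch receptors are membrane proteins that bind Delta-like and Jagged ligands on a neighbouring cell. Ligand binding exposes the receptor to cleavage by an ADAM protease and then by gamma-secretase, and the freed intracellular part enters the nucleus and binds RBPJ. RBPJ represses its target genes without Notch and activates them with it, and the HES and HEY genes, which encode transcriptional repressors, are the best known of these targets. In the liver the pathway is known for bile duct formation and is also studied in activated stellate cells.

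RBPJ binds the heptamer GTGGGAA and related forms such as GTGTGAA. The stretches that carry both forms before the HES1 and HES4 starts are shown because these are the targets that passed the filter on low values and differed from vehicle in opposite directions. They come from RefSeq on GRCh38.p14, in the direction of the gene, with the heptamers in capitals and the second one read on the other strand, so that it appears as TTCACAC. The HES1 stretch lies at chr3:194136063-194136092 on the plus strand and the HES4 stretch at chr1:1000145-1000174 on the minus strand.
HES1: GTGGGAAagaaagtttgggaagtTTCACAC
HES4: GTGGGAAagaatgcggagccgggTTCACAC
Both stretches span 30 bases, face the heptamers towards each other across a gap of 16 bases and share 21 of their 30 bases, 7 of them in the gap. The first heptamer began 85 bases before the HES1 start and 77 bases before the HES4 start, and the second began 62 and 54 bases before it. The 250 bases before HES1, at chr3:194135898-194136147, read as follows.
HES1: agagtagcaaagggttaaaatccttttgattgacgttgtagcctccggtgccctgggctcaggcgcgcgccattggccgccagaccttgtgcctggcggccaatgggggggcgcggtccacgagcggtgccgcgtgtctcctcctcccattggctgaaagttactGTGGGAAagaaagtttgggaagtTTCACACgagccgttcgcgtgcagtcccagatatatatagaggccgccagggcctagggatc
The shorter core TGGGAA, which the first heptamer contains, occurred once more in the HES1 window, 70 bases before the start. The HES4 window is not printed whole because its last 75 bases lie inside the gene as the deposited table bounds it, the HES4 heptamers almost wholly among them.

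**Figure D1:**
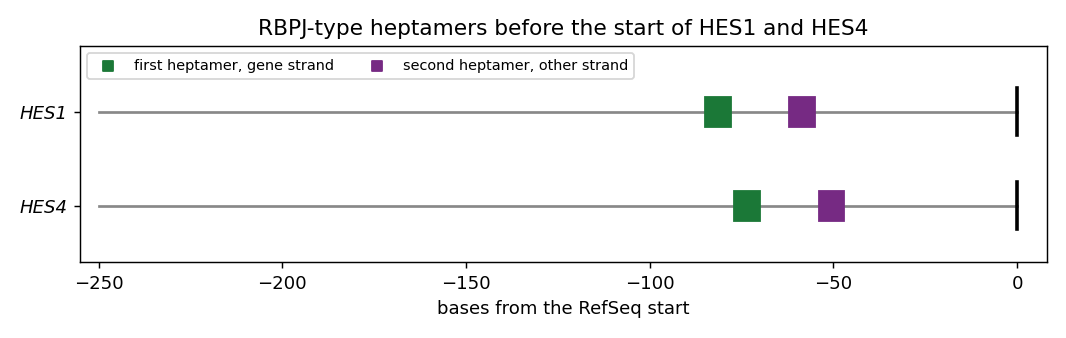
Position of the RBPJ-type heptamers in the 250 bases before the RefSeq starts of HES1 and HES4, with distance from the start in bases on the horizontal axis and the start as a black bar. In both genes the 7-base motifs face each other across 16 bases, 85 and 62 bases before the HES1 start and 77 and 54 bases before the HES4 start.

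Both strands of 35116 RefSeq windows of the same length were searched. GTGGGAA was found in 5.43% of them, GTGTGAA in 2.48% and TGGGAA in 20.8%. GTGGGAA facing GTGTGAA within 30 bases was found in 6 windows (0.0171%), those of HES1, HES4, FST, FAM81B, RPGRIP1 and 1 uncharacterised locus, and the gap was 16 bases in HES1 and HES4 and 7, 11, 22 and 25 bases in the other 4. This arrangement was chosen for the search after the HES1 and HES4 sequences had been seen. RefSeq windows were found for 8 of the 10 genes, all but DLL1 and HEY1, 12 windows in all. Of RBPJ's 5 windows, 1 held GTGGGAA on both strands, 115 and 73 bases before the start, and the windows of the other 5 genes held none of the letters searched.

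The cells were first checked against markers. Of 12 stellate cell or fibroblast markers, 7 had at least 1 FPKM in every library, led by VIM, with 438.65 to 654.31 FPKM, and 5 were below 0.5 in every library, LRAT (0 throughout), DES, GFAP, RELN and COL1A2. The 5 endothelial markers summed to 0.74 to 1.06 FPKM, and the 5 hepatocyte markers to 11.3 to 12.5 FPKM. The 4 epithelial and cholangiocyte markers in the table summed to 11.9 to 14.5 FPKM, from KRT7 and SOX9, with KRT19 and CDH1 at or below 0.11. Of the blood cell markers the table held CD68, with 39.81 to 47.53 FPKM, and ITGAM, at or below 0.07. These are levels in bulk RNA, in which fewer cells with a transcript and less of it per cell cannot be told apart.

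Of the 8 genes that passed a filter on low values, 2, NOTCH2 and RBPJ, rose more than 2-fold over vehicle at each dose, and 0 fell more than 2-fold. Among all 12422 gene symbols tested, 39.5% rose more than 2-fold at the lower dose and 38.6% at the higher dose, while 1.75% and 1.47% fell more than 2-fold. NOTCH2 went from 16.71 FPKM to 34.5 and 34.45, and RBPJ from 0.97 to 2.9 and 2.9. JAG1, HES1, NOTCH1 and DLL1 were 1.48 to 1.92 times vehicle, NOTCH3 differed in sign between the doses, and HES4 was the only one of the 8 to be lower at both doses. HES4 stayed below 0, and NOTCH2, JAG1 and RBPJ above 0, in all 12 ways of computing the difference, whereas quantile normalization put DLL1 at -0.24 and -0.24, NOTCH1 at -0.0036 and -0.17, and HES1 at -0.14 at the higher dose. These ratios and the differences below are on the log2(FPKM + 0.1) scale, on which low genes seem to change less than they do, and a gene was called past 2-fold where the log2 difference exceeded 1 in either direction. The filter was a mean of at least 0.5 FPKM over the 3 libraries, which JAG2 and HEY1 did not pass.

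A count of 2 is too small to set apart from the share of the whole table. The median log2 difference of the 8 Notch genes was 0.82 at the lower dose and 0.67 at the higher dose, beside 0.62 and 0.62 over all genes tested. The balance of calls over all genes depended on the scaling. At the lower dose 30.4% were higher and 6.29% lower once the median ratio of well expressed genes was set to 0, and 9.19% and 9.85% after quantile normalization. Both comparisons use the same vehicle library, so the doses are not independent of each other.

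**Figure D2:**
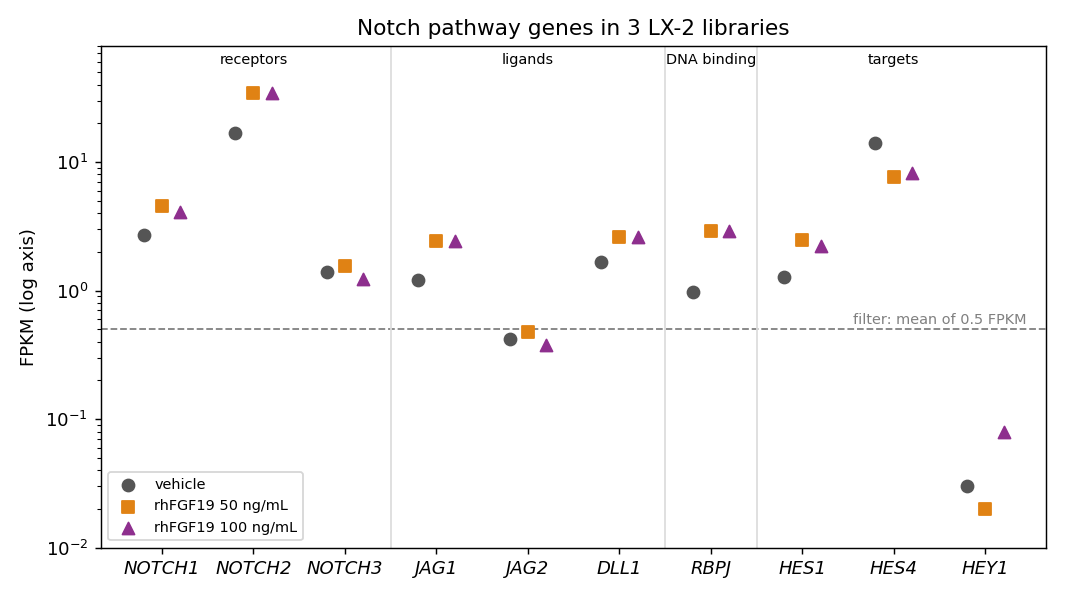
FPKM of the 10 Notch pathway genes (log axis) in the vehicle library (circles), at 50 ng/mL rhFGF19 (squares) and at 100 ng/mL rhFGF19 (triangles), 1 library each, with the 0.5 FPKM mean filter as a dashed line. NOTCH2 had 16.71, 34.5 and 34.45 FPKM, HES4 had 14.03, 7.58 and 8.28, and HEY1 was at or below 0.08 in every library.

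The differences from vehicle followed the base composition of the transcripts throughout the table. Genes whose transcripts had 40 to 42% G and C had a median log2 difference of 1.48 at the lower dose and 1.47 at the higher dose, whereas genes of 62 to 64% had medians of -0.50 and -0.50. Each Notch gene is therefore given below with the median of the 500 tested genes nearest to it in transcript GC content, and with what is left of its difference once the trend on GC content is taken out. Whether this trend is a property of the libraries or of the cells cannot be told apart with 1 library per condition, and its part in the results was not tested. After removal of the trend 3.72% of the genes tested were more than 2-fold higher at the lower dose and 3.33% at the higher dose, and 5.14% and 4.58% were more than 2-fold lower. The Notch genes past 2-fold were then NOTCH1 and DLL1 at each dose, both higher, in place of NOTCH2 and RBPJ, and the median of the 8 was 0.26 and 0.18, beside 0.008 and 0.005 over all genes.

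**Figure D3:**
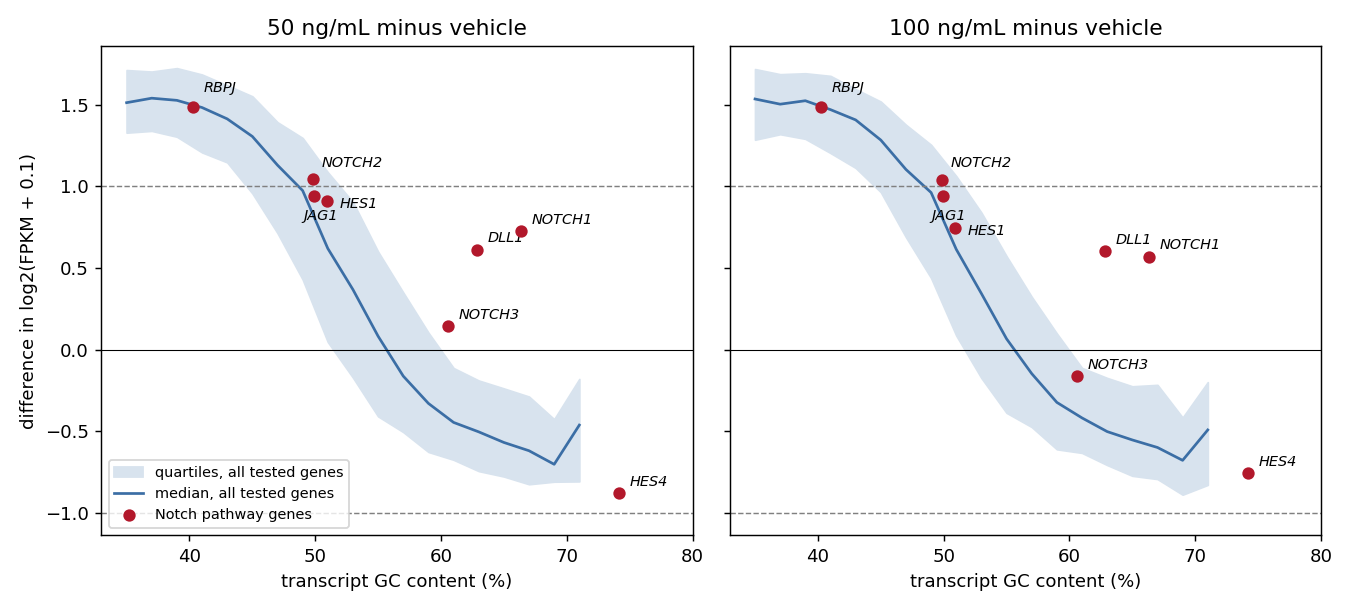
Difference from vehicle in log2(FPKM + 0.1) at 50 ng/mL (left) and 100 ng/mL (right) against transcript GC content in percent, with the median (line) and quartiles (band) of all tested genes in bins of GC content and the 8 Notch genes that passed the filter as points. RBPJ, at 1.49 in both panels, lies on the line, whereas NOTCH1, at 0.73 and 0.57, and DLL1, at 0.61 and 0.60, lie above the band at their GC content.

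NOTCH2 was the most abundant receptor. The gene (ENSG00000134250) lies at chr1:119911553-120069662 on the minus strand in the coordinates of the table, which match GRCh38. Its log2 difference was 1.04 at the lower dose and 1.04 at the higher dose, that is 2.06-fold at each, close to the 2-fold line. In genes of similar GC content the median was 0.84 and 0.82, 39.0% of them were more than 2-fold higher at 50 ng/mL, and without the trend NOTCH2 stood at 0.26 and 0.27. The rhFGF19 libraries were alike and both lay above vehicle. The call did not hold once the median ratio was set to 0 or a trend on transcript length or GC content was removed. NOTCH2 carried 78.8% of the summed FPKM of the 4 NOTCH receptors in vehicle, 84.4% at the lower dose and 85.9% at the higher dose. These shares are not adjusted for GC content, which was 49.8% in NOTCH2, 66.3% in NOTCH1 and 60.6% in NOTCH3. Without the trend NOTCH1 lay further above vehicle than NOTCH2, at 1.28 and 1.11.

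NOTCH2 has near-identical partial copies, the NOTCH2NL genes, and reads may have been shared among them. NOTCH2NLA had 6.98, 5.09 and 3.23 FPKM in the order vehicle, 50 and 100 ng/mL. NOTCH2NLB had 10.49, 5.77 and 6.73. NOTCH2NLC had 2.6, 1.8 and 1.05, and NOTCH2NLR 2.2, 2.61 and 3.08. NOTCH2NLA, NOTCH2NLB and NOTCH2NLC were thus lower in both rhFGF19 libraries and NOTCH2NLR higher, and how reads were split between NOTCH2 and these copies is not given in the sources used here.

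NOTCH1 (ENSG00000148400, chr9:136494433-136546048, minus strand), the receptor known for its role in blood and vessel development, had 2.71 FPKM in vehicle, 4.55 at the lower dose and 4.07 at the higher dose. The log2 differences of 0.73 and 0.57 stayed under 2-fold. Its matched transcripts had a GC content of 66.3%, at which similar genes had a median of -0.58 and -0.57 and only 1.6% were more than 2-fold higher at 50 ng/mL. NOTCH1 stood 1.28 and 1.11 above the trend. Once a trend on transcript length was removed instead, it stood at 0.28 and 0.13. That length was the median over its matched transcripts, 743 bases. The 3 matched transcripts of NOTCH1 did not include its longest one in GENCODE v29, of 9306 bases and 62.9% GC. With the GC content of the longest transcript of every gene used in their place, an alternative chosen after seeing the data, NOTCH1 was at 1.19 and 1.01.

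NOTCH3 (ENSG00000074181, chr19:15159038-15200995, minus strand), a receptor best known from smooth muscle cells and pericytes, had 1.4 FPKM in vehicle, 1.56 at the lower dose and 1.24 at the higher dose. The vehicle value lay between the other 2, with log2 differences of 0.15 and -0.16. Genes of similar GC content, 60.6% in NOTCH3, had medians of -0.40 and -0.38, and without the trend NOTCH3 stood at 0.50 and 0.18. The sign depended on the processing, with -0.30 and -0.60 once a trend on transcript length was removed and -0.73 and -1.02 after quantile normalization, the last of these past 2-fold. The length used for NOTCH3 was the median over its matched transcripts, 748 bases, beside 8666 for its longest transcript. The fourth receptor, NOTCH4, which is known from endothelium, had 0.38, 0.27 and 0.36 FPKM and was left out by the filter.

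Among the ligands, JAG1 had 1.21 FPKM in vehicle and 2.41 in each rhFGF19 library. JAG1 (ENSG00000101384, chr20:10637684-10673999, minus strand) encodes the Jagged ligand needed for bile duct development. Its log2 difference of 0.94 at each dose missed the 2-fold line by little, genes of similar GC content (49.9%) had medians of 0.82 and 0.79, and 0.17 and 0.18 were left without the trend. JAG1 and NOTCH2 had nearly the same GC content and similar differences.

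DLL1 (ENSG00000198719, chr6:170282206-170306565, minus strand), a Delta-like ligand, had 1.68 FPKM in vehicle, 2.62 at the lower dose and 2.6 at the higher dose. The log2 differences were 0.61 and 0.60. Similar genes, at 62.8% GC, had medians of -0.49 and -0.50, and DLL1 stood 1.06 and 1.03 above the trend. On the longest transcript, with 58.3% GC, it stood 0.85 and 0.82 above and was no longer past 2-fold. Once a trend on transcript length was removed instead, DLL1 stood at 0.01 and 0.01. FAM120B overlaps DLL1 on the opposite strand and had 1.8, 4.08 and 3.5 FPKM, also higher in both rhFGF19 libraries, and whether the counting used strand is not given in the sources used here, so reads of the overlapping part may not be told apart.

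JAG2 (ENSG00000184916, chr14:105140982-105168824, minus strand), the other Jagged ligand, had 0.42 FPKM in vehicle, 0.48 at the lower dose and 0.38 at the higher dose, a mean of 0.427 that lies just under the filter. Of the summed FPKM of the 5 canonical ligands, JAG1 made up 18.4% in vehicle, 29.4% at the lower dose and 29.5% at the higher dose. The share of DLL1 was 25.5%, 31.9% and 31.8%. DLL3, a ligand that acts mainly inside the cell that makes it, had the highest level of the 5 in vehicle, with 28.7% of the sum, and 9.38% and 12.9% in the rhFGF19 libraries. The ligand shares are not adjusted for GC content, which was 49.9% in JAG1, 62.8% in DLL1 and 66.1% in DLL3.

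RBPJ (ENSG00000168214, chr4:26163455-26435131, plus strand) had the largest log2 difference of the 8 genes at each dose, 1.49 and 1.49, a 2.80-fold ratio from 0.97 FPKM in vehicle to 2.9 in each rhFGF19 library. Its transcripts had the lowest GC content of the set, 40.3%. Genes of similar GC content had medians of 1.52 and 1.51, and 89.4% of them were more than 2-fold higher at 50 ng/mL. The difference left without the trend was 0.02 and 0.03. RBPJ was also no longer past 2-fold at either dose with a pseudocount of 1 in place of 0.1, or after quantile normalization, with 0.60 and 0.61. The RBPJ pseudogenes in the table, RBPJP2, RBPJP5, RBPJP6 and RBPJP7, were at or below 0.01 FPKM in every library.

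The targets HES1 and HES4, which share the facing heptamers shown above, differed from vehicle in opposite directions, except at 100 ng/mL after quantile normalization, where both were lower. HES1 (ENSG00000114315, chr3:194136148-194138732, plus strand), a repressor that keeps progenitors from differentiating, had 1.28 FPKM in vehicle, 2.49 at the lower dose and 2.21 at the higher dose. Its log2 differences of 0.91 and 0.74 stayed under 2-fold. Similar genes, at 50.9% GC, had medians of 0.66 and 0.62, and HES1 stood 0.27 and 0.12 above the trend.

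HES4 (ENSG00000188290, chr1:998962-1000172, minus strand) had 14.03 FPKM in vehicle, 7.58 at the lower dose and 8.28 at the higher dose, or 0.544 and 0.593 times vehicle. Both rhFGF19 libraries lay below vehicle. The log2 differences of -0.88 and -0.75 did not reach 2-fold, and ranked at the 3.34 and 5.72 percentiles of all genes tested. HES4 was past 2-fold at the lower dose with the median ratio set to 0 (-1.11) and after quantile normalization (-1.13), and at both doses once a trend on transcript length was removed (-1.23 and -1.11). HES4 has the highest GC content of the set, 74.2%, past the last bin of the plot of differences by GC content, so the 500 genes nearest to it range from 64.9 to 78.7%. Their medians were -0.60 and -0.58, and -0.17 and -0.02 were left without the trend. The ratio of HES4 to HES1 was 11.0 in vehicle, 3.04 at the lower dose and 3.75 at the higher dose. This ratio is of FPKM with no GC trend removed, and the transcripts of HES1 had 50.9% GC.

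HEY1 (ENSG00000164683, chr8:79762371-79767857, minus strand), a target with known roles in vessels and the heart, had 0.03, 0.02 and 0.08 FPKM. These values are too near 0 for a ratio. Of the summed FPKM of the 8 HES and HEY genes in the table, HES6 made up 58.1% in vehicle and HES4 32.8%. The share of HES1 was 2.99% in vehicle, 9.75% at the lower dose and 8.65% at the higher dose. HES6, which is known to oppose HES1, was the most abundant also at the lower and the higher dose, with 53.5% and 48.4%. The shares in this family are not adjusted for GC content, which was 50.9% in HES1, 74.2% in HES4 and 70.1% in HES6.

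The rhFGF19 libraries differed little from each other in these genes. The log2 difference of 100 from 50 ng/mL was 0.00 for JAG1 and RBPJ, -0.31 for NOTCH3, the largest in size, and 0.13 for HES4, the highest. None of the 8 exceeded 0.324, the SD of that difference over all genes tested, of which 0.845% were more than 2-fold higher and 0.797% more than 2-fold lower at 100 ng/mL. That SD is the spread between 2 libraries of different label, not between replicates.

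By level, NOTCH2 came first and HES4 next in every library, followed by NOTCH1. In vehicle NOTCH2 and HES4 lay within that spread of each other, with 16.71 and 14.03 FPKM, whereas at 50 ng/mL they lay apart, with 34.5 and 7.58. DLL1, NOTCH3, HES1, JAG1 and RBPJ had 0.97 to 1.68 FPKM in vehicle, and no neighbours in that order were farther apart than the spread. In the rhFGF19 libraries RBPJ, DLL1, HES1 and JAG1 had 2.21 to 2.9 FPKM with no such gap between neighbours, and NOTCH3 lay below them. JAG2 and HEY1 were last throughout. NOTCH2 stood at the 79.6 percentile of all tested genes in vehicle and at the 89.3 percentile in each rhFGF19 library, and HES4 at the 77.2, 61.8 and 64.0 percentiles. These levels and percentiles are not adjusted for GC content, which was 49.8% in NOTCH2 and 74.2% in HES4.

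The genes with the most similar values over the 3 libraries were found, for the most abundant receptor, ligand and target of the set, by the Euclidean distance of their log2(FPKM + 0.1) values among 12421 genes. Closest to NOTCH2 was PFN2, at a distance of 0.024, with 16.59, 34.75 and 34.91 FPKM, followed by SRSF3 and CERS2. Closest to DLL1 was DIS3L2, at 0.054, with 1.62, 2.59 and 2.63 FPKM, followed by AL596244 and MED28. Closest to HES4 was FNDC4, at 0.070, with 13.59, 7.33 and 8.14 FPKM, followed by GET4 and EFNA4. With 3 libraries such likeness is easily reached and says no more than that the values are close.

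The rest of the pathway was described with a list of 73 genes grouped by role, of which 67 were in the table and 59 passed the filter. At each dose 24 of the 59 (40.7%) were more than 2-fold higher and 1 was more than 2-fold lower (1.69%), shares close to those of the whole table. The gene that fell was DLL3 at the lower dose and HES6 at the higher dose. The median log2 difference was 0.88 and 0.78. Without the GC trend 4 of the 59 at the lower dose and 5 at the higher dose were more than 2-fold higher and 0 lower. The shares over all genes were then 3.72% and 3.33% higher and 5.14% and 4.58% lower. The medians of the 59 were 0.16 and 0.18.

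**Figure D4:**
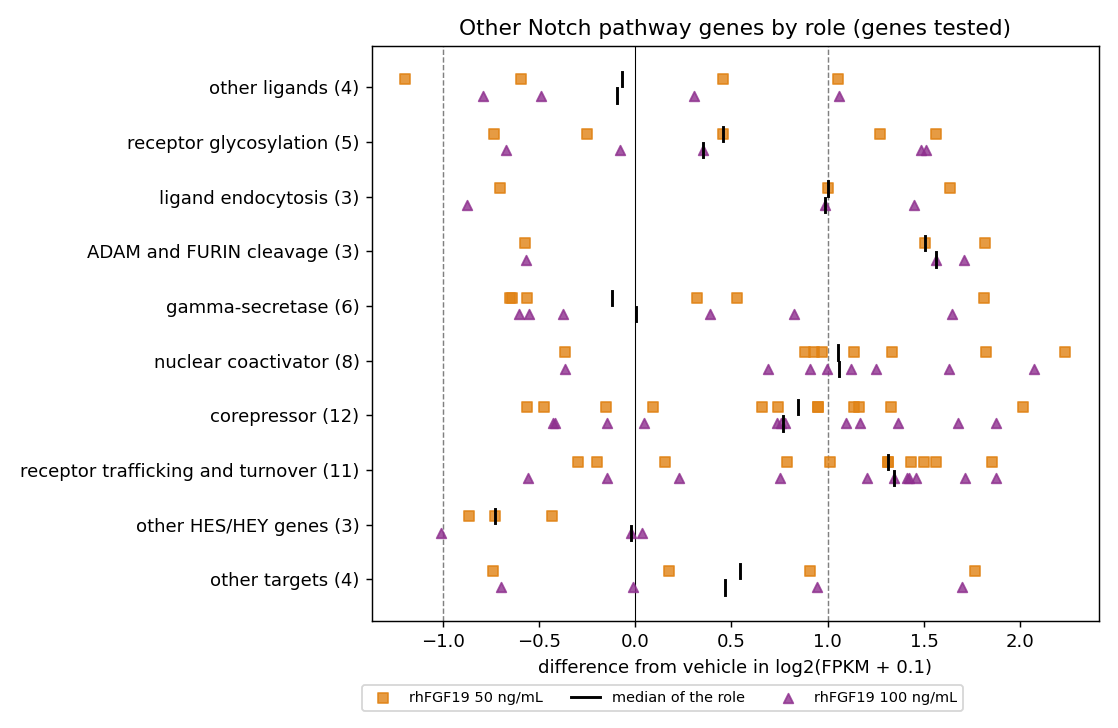
Difference from vehicle in log2(FPKM + 0.1) of 59 other Notch pathway genes by role, at 50 ng/mL (squares) and 100 ng/mL (triangles) rhFGF19, with the number of genes tested in brackets, the median of each role as a black bar and the 2-fold lines dashed. The medians of ADAM and FURIN cleavage genes, 1.51 and 1.56, of receptor trafficking and turnover genes, 1.31 and 1.34, and of nuclear coactivators, 1.05 and 1.06, lie above 1 at both doses and that of ligand endocytosis genes at the lower dose, while the other HES and HEY genes lie at or below 0.03.

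Among the enzymes that act on the receptors before they reach a ligand, POFUT1, which adds O-fucose to them, had 27.09 FPKM in vehicle, 37.2 at the lower dose and 34.62 at the higher dose. EOGT, which adds O-GlcNAc, rose from 0.8 to 2.56 and 2.46 FPKM. RFNG, the Radical fringe glycosyltransferase, had 22.92, 13.77 and 14.36 FPKM, with log2 differences of -0.73 and -0.67. Without the GC trend EOGT stood at 0.16 and 0.12 and RFNG at -0.23 and -0.19. In all, 2 of the 5 glycosylation genes tested were past 2-fold at each dose, both higher, beside 39.5% and 38.6% of all genes. Without that trend 0 of them were, beside 3.72% and 3.33% of all genes higher and 5.14% and 4.58% lower.

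The ligand side was mixed. DNER, a non-canonical ligand, rose from 3.61 FPKM to 7.6 and 7.62, with 0.24 and 0.26 left without the GC trend. DLL3 had 1.89, 0.77 and 1.05 FPKM, and its log2 difference of -1.19 at 50 ng/mL, but not that of -0.79 at 100 ng/mL, was past 2-fold. Without the trend DLL3 stood at -0.65 and -0.26. Among the ubiquitin ligases that drive ligand endocytosis, MIB1 rose from 1.17 to 3.84 and 3.37 FPKM while MIB2 had 10.25, 6.26 and 5.56. Their transcripts had 39.2% and 68.8% GC, and without the trend MIB1 stood at 0.14 and -0.03 and MIB2 at -0.10 and -0.26. NEURL1B had 5.91, 11.95 and 11.82 FPKM, just past 2-fold at the lower dose and just short of it, at 0.99, at the higher. NEURL1B stood 1.54 and 1.51 above the GC trend, which puts it beside NOTCH1 and DLL1.

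For the cleavage steps, ADAM10, the main protease of ligand-dependent cleavage, rose from 0.86 FPKM to 3.28 and 3.04. FURIN, which cuts the receptors during maturation, had 112.79, 75.95 and 76.17 FPKM. Without the GC trend ADAM10 stood at 0.35 and 0.26 and FURIN at -0.15 and -0.16. APH1A, the gamma-secretase gene with the highest level, had 121.65, 78.04 and 80.09 FPKM, and stood at -0.71 and -0.67 without the trend.

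In the nucleus, KAT2B, an acetyltransferase of the coactivator complex, rose from 0.24 FPKM to 1.5 and 1.33. Its paralog KAT2A had 35.94, 27.85 and 27.92 FPKM. Without the GC trend KAT2B stood at 0.85 and 0.71 and KAT2A at -0.18 and -0.19. Past 2-fold were 4 of the 8 coactivators tested at each dose, all higher, beside 39.5% and 38.6% of all genes. Among the corepressors 4 of 12 at 50 ng/mL and 5 of 12 at 100 ng/mL were more than 2-fold higher. Without the trend 1 and 1 of the coactivators and 0 and 1 of the corepressors were, beside 3.72% and 3.33% of all genes. KDM5A, a histone demethylase that works with RBPJ, rose from 0.68 FPKM to 3.05 and 2.76, with 0.64 and 0.52 left without the trend. TLE5 had 105.13, 75.67 and 78.19 FPKM, and TLE2 6.84, 4.6 and 5.1.

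Of the 11 receptor trafficking and turnover genes tested, 7 were more than 2-fold higher at each dose, beside 39.5% and 38.6% of all genes. In this group 9 lay above 0 at each dose, with medians of 1.31 and 1.34. NEDD4, a ubiquitin ligase, rose from 1.05 FPKM to 4.05 and 4.12, with 0.35 and 0.38 left without the GC trend. DTX3 had 13.78, 11.99 and 12.45 FPKM, and DTX2 8.52, 6.92 and 5.76. The median GC content of this group was 47.5%, and its medians without the GC trend were 0.18 and 0.32. The 3 other HES and HEY genes tested had a median GC content of 65.3%, and 0 of them were more than 2-fold higher at either dose. At 100 ng/mL 1 of the 3 lay above 0, and 2 of the 3 did once the GC trend was removed. HES6 had 24.9, 13.67 and 12.35 FPKM, with log2 differences of -0.86 and -1.01, and HEYL 1.83, 1.33 and 1.8. The transcripts of HES6 had 70.1% GC, and without the trend HES6 stood at -0.22 and -0.36, no longer past 2-fold.

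Among the other reported targets, IL7R, the interleukin-7 receptor chain, rose from 7.98 FPKM to 27.39 and 26.07, and CDKN1A, the cell cycle inhibitor p21, had 145.72, 87.33 and 89.79. The transcripts of IL7R had 41.8% GC and those of CDKN1A 60.7%, and the differences left without the trend were 0.34 and 0.29 for IL7R and -0.38 and -0.36 for CDKN1A. CCND1, which encodes cyclin D1 and is named here after its values were seen, had 55.25, 103.92 and 106.4 FPKM at 63.7% GC. Its log2 differences of 0.91 and 0.94 stayed under 2-fold and lay 1.39 and 1.41 above the trend.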

How the data were processed

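The authors deposited 1 table of FPKM values, written to 2 decimals, for 3 poly(A) libraries of LX-2 cells. The submitters' processing notes list HISAT2 2.0, StringTie 1.3.0 and Bowtie 0.12.2 and older genome builds, with no roles, but the coordinates of 99.7% of the 25531 gene identifiers found in GENCODE v29 overlapped that GRCh38 annotation, all 10 Notch genes included. Depth, strand and annotation version are not given in the sources used here. Columns of per-sample values left unused numbered 0, and the table holds no comparison by the authors.

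Rows sharing a symbol were summed, and symbols averaging at least 0.5 FPKM over the libraries were compared as differences of log2(FPKM + 0.1), called past 2-fold. Transcript GC content and length were medians over the transcripts listed for a gene, found for 99.8% of the tested symbols. The median length can fall far below that of the longest transcript, and no length trend was taken on the longest transcripts. Trends were removed by lowess with a span of 0.3. Calculations used Python 3.11.15, pandas 2.3.3, statsmodels 0.14.6 and matplotlib 3.10.9 and were tested on simulated data. No p-value was computed, since each condition has 1 library.

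The 10 genes, the pathway and marker lists and the alternatives were chosen with earlier results of these data known. Named were the 10 genes, their copies and overlapping genes, and, per role of the other pathway genes, those of the highest level and of the highest and lowest mean difference. For the most abundant receptor, ligand and target, the 3 nearest genes were named as well. The values of 1 gene that this rule names are not reported here.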

Additional observations from a re-analysis of the deposited data

How the results depend on the processing

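No paired analysis was possible because each condition has 1 library, and for the same reason none was left out. Counts and medians are given in the order 50 and 100 ng/mL, and the cause of their differences between settings was not tested unless the threshold itself sets them. Changing the pseudocount to 0.01 or the handling of shared symbols left each count and median near its reported value. Neither change of the filter altered the counts of Notch genes. Without the filter the median at 50 ng/mL was 0.67 for the Notch genes and 0.66 for the other pathway genes. Over all genes that median was then 0.31, with 27.6% and 27.3% more than 2-fold higher. A filter at a mean of 1 FPKM was passed by 53 of the other pathway genes, with medians of 0.74 and 0.76. Of these 53, 20 and 20 were higher, beside 37.8% and 37.0% of all genes.

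A pseudocount of 1 left 1 and 1 of the Notch genes more than 2-fold higher (NOTCH2), beside 17.6% and 16.7% of all genes, and 10 and 9 of the other pathway genes higher and 0 and 0 lower, with a median of 0.47 for the latter at 50 ng/mL. Rescaling to TPM gave 4 Notch genes higher at 50 ng/mL, beside 44.5% of all genes, and 0 other pathway genes lower at 100 ng/mL, beside 1.18%. Setting the median ratio to 0 left 1 and 1 Notch genes higher (RBPJ), beside 30.4% and 29.7% of all genes, and 1 (HES4) lower at 50 ng/mL, beside 6.29%, and 2 and 2 other genes lower. Quantile normalization left 1 and 1 Notch genes higher (NOTCH2), beside 9.19% and 8.42% of all genes, and 1 and 1 lower (HES4, then NOTCH3), beside 9.85% and 9.02%, with medians of 0.0037 and -0.15, the second of opposite sign, and 5 and 6 other genes higher and 6 and 4 lower with medians of 0.18 and 0.31.

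Without the GC trend the medians of the Notch genes were 0.26 and 0.18, and 4 and 5 other genes were higher and 0 and 0 lower, with medians of 0.16 and 0.18. Of all genes 3.72% and 3.33% were then higher and 5.14% and 4.58% lower. On the longest transcript, chosen after seeing the data, 1 and 1 Notch genes (NOTCH1) were higher, beside 3.23% and 2.89% of all genes, with medians of 0.29 and 0.27, and 4 and 3 other genes were higher, with 0 lower at 100 ng/mL and medians of 0.17 and 0.23. Without a trend on transcript length 1 and 1 Notch genes were higher (RBPJ), beside 13.6% of all genes at 100 ng/mL, and 1 and 1 lower (HES4), beside 16.2% and 15.2%, with medians of 0.36 and 0.21, and 9 and 10 other genes were higher and 11 and 7 lower with medians of 0.12 and 0.26. At 1.5-fold 6 and 5 Notch genes were higher, beside 51.0% and 50.8% of all genes, and 1 and 1 lower (HES4), beside 13.5% and 12.5%, and 9 and 6 other genes lower. At 4-fold 0 and 0 Notch genes, beside 1.79% of all genes at 50 ng/mL, and 2 and 1 other genes, were higher and 0 and 0 other genes lower.

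The median over all genes tested, 0.62 at 50 ng/mL, was 0.42 with a pseudocount of 1, 0.77 as TPM, 0.40 with the median ratio set to 0, 0.10 after quantile normalization, 0.046 without the length trend and 0.008 without the GC trend. Without the filter it was 0.31, and with a filter at a mean of 1 FPKM 0.52. FPKM keeps no depth, so the precision of the low values, JAG2 and HEY1 above all, is not known.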
